A study of Homo sapiens with 14 samples.

Results

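The insulin-like growth factor (IGF) axis was followed through 9 genes of prostate cancer cells exposed to SEL120-34A, which blocks the transcriptional kinases CDK8 and CDK19. The genes were taken by symbol from a count table of 62703 genes. They comprised the binding proteins IGFBP3, IGFBP2, IGFBP4, IGFBP5 and IGFBP6, the receptors IGF1R and IGF2R, and the adaptors IRS1 and IRS2. IGFBP3 was chosen by its measured rise with SEL120-34A in LNCaP cells and by the gap between that rise and its response in 22Rv1. Those values are therefore given as a description without a test, and the other 8 genes were chosen as members of its pathway. All 9 were in the table, and 4 of them (IGFBP3, IGFBP2, IGF2R and IRS2) passed the filter on low counts that left 7086 genes for testing.

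Established lines were used: LNCaP, which depends on hormone and is sensitive to the prostate cancer drug enzalutamide, 22Rv1, which resists enzalutamide, and PC3, which grows independently of hormone. Cells received 1.5 µM SEL120-34A or the DMSO vehicle alone for 3 days, and all groups shared the same serum-supplemented medium. LNCaP and 22Rv1 had 3 libraries per arm and PC3 had 1, so PC3 values have no replicate check. Libraries were made by BRB-seq, a pooled method that reads the 3′ end of each transcript.

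IGF1 and IGF2 signal through the receptor tyrosine kinase IGF1R, which phosphorylates the docking proteins IRS1 and IRS2 and so engages the PI3K/AKT and RAS/MAPK cascades. IGF2R clears IGF2 and carries lysosomal enzymes, without a kinase of its own. The secreted binding proteins hold the ligands away from the receptor, and proteases, among them the prostate kallikrein KLK3 (prostate-specific antigen, PSA), cleave them and set the ligands free. In the prostate, IGFBP3 is also known for effects on growth and death that do not need IGF1R.

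Total counts per library ranged from 246063 to 909176, so that 3 counts, taken as the floor of detection, corresponded to 3.27 CPM (counts scaled to a common library size with TMM factors) in the deepest and 12.9 CPM in the shallowest library. Intervals and floors cover counting error only. KLK3, the check of the line labels, was at 238 to 1370 CPM in LNCaP, 8.58 to 31.8 in 22Rv1 and 7.62 to 10.5 in PC3. The summed level of 6 markers of fibroblasts, endothelium and immune cells was 7.80 to 18.3 CPM in LNCaP, 0 to 8.58 in 22Rv1 and 94.7 to 95.8 in PC3, most of it COL1A1 (49 and 85 counts in the PC3 libraries). PECAM1 had at most 4 counts and CD68 at most 1, and COL1A2, DCN and PTPRC had 0 counts in all 14 libraries. The share of mitochondrial counts ran from 16.5% to 23.3% in treated and from 13.9% to 17.3% in control LNCaP libraries, and from 9.52% to 13.1% against 7.60% to 9.82% in 22Rv1. Its part in the results below was not tested. The balance of higher and lower genes depended on the scaling: library totals in place of TMM factors gave 99 higher and 90 lower genes instead of 141 and 55 in LNCaP, and 144 and 231 instead of 294 and 110 in 22Rv1, with a median shift of all genes of -0.08 and -0.14. Fewer cells of a kind and less RNA per cell cannot be told apart in such bulk libraries. The published methods speak of biological replicates in general, and the labels do not say whether libraries of a group came from separate cultures. If they did not, p-values measure the spread between these libraries, which may be technical.

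IGFBP3 (ENSG00000146674.16; chr7:45912245-45921874, minus strand, GRCh38) and IGFBP2 (ENSG00000115457.10; chr2:216632828-216664436, plus strand, GRCh38) are the binding proteins with enough counts in LNCaP and 22Rv1 to be tested. The 250 bases before a RefSeq transcription start (GRCh38.p14) of each are shown to let their proximal promoters be compared. The IGFBP3 window, chr7:45921273-45921522, lies inside the annotated gene span but overlaps no annotated exon. For IGFBP2, the window richest in CpG of the 3 listed, chr2:216633170-216633419, is given. It too lies inside the gene span and overlaps no exon. Capitals mark a TATA box (TATAAA or TATATA) or a GC box (GGGCGG) on either strand.
IGFBP3 promoter: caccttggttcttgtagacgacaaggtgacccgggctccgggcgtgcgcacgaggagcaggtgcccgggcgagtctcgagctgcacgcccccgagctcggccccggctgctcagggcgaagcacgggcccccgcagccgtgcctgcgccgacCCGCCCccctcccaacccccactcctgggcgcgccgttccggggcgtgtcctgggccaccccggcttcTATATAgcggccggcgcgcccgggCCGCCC
IGFBP2 promoter: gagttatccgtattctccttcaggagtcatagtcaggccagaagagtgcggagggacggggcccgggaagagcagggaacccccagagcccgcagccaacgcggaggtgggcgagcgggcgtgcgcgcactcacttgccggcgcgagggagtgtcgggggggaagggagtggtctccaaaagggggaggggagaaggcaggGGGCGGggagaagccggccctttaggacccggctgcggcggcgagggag
The IGFBP3 window had 32 CpG, a GC content of 76.0%, 1 TATA box from base -30 to -25 and 2 GC boxes. That of IGFBP2 had 22 CpG, a GC content of 69.2%, no TATA box of these spellings and 1 GC box. The marked motifs do not overlap each other in these windows. Of 35116 RefSeq promoter windows of this length, 12.8% held such a TATA box and 42.6% a GC box. These are matches of letters and say nothing of a factor's binding.

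IGFBP3, the main carrier of circulating IGFs, was low in LNCaP controls and high after SEL120-34A. The 3 LNCaP DMSO libraries had 72, 13 and 12 counts, or 101, 34.0 and 16.8 CPM. The 3 treated libraries had 144, 161 and 173 counts, or 561, 436 and 365 CPM. All treated libraries lay above all controls, although the controls themselves were spread over a wide range with replicate 1 on top. The mean went from 50.7 ± 44.7 to 454 ± 99.3 CPM (SD, n = 3), a log2 fold change of 3.10 ± 0.26 (SE), which was the rank 3 value among the 7086 genes. That SE is taken from the edgeR F statistic. Other tools gave larger ones, 0.539 with the DESeq2 Wald test and 0.433 with limma-trend. In this comparison 2.77% of all genes were past an adjusted p of 0.05, 1.99% higher and 0.776% lower, and in 19.4% the libraries of the groups did not overlap. Leaving out LNCaP DMSO replicate 1 raised the log2 fold change to 4.29, and leaving out LNCaP DMSO replicate 3 lowered it to 2.61. At an equal depth of 246063 counts in all libraries, in 1 random draw, it was 3.40. The treated library with the highest IGFBP3 level was also the shallowest of its group, with 291056 counts, and had the highest mitochondrial share, 23.3%. In both LNCaP groups the order of IGFBP3 levels was that of the mitochondrial shares. From replicate 1 to 3 these were 17.3%, 15.7% and 13.9% in DMSO and 23.3%, 20.8% and 16.5% in treated libraries. A link between the 2 was not tested.

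In 22Rv1, IGFBP3 did not show a detectable change. DMSO libraries had 41.2, 39.3 and 35.8 CPM (21, 21 and 30 counts). Treated libraries had 35.8, 34.3 and 31.4 CPM (13, 8 and 11 counts). The 2 groups met at their edge, with treated replicate 1 just above DMSO replicate 3. The log2 fold change was -0.17 ± 0.44 (edgeR quasi-likelihood test, adjusted p 0.886), with a 95% interval from -1.18 to 0.84. In PC3, IGFBP3 was at 230 CPM in the DMSO library and 203 CPM in the treated one, a ratio of 0.885 with a counting interval from 0.700 to 1.12. The response in LNCaP exceeded that in 22Rv1 by 3.27 ± 0.50 on the log2 scale, again as a description only, since this gap led to the choice of the gene. The SE of the gap was 0.805 with the DESeq2 Wald test and 0.612 with limma-trend.

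Ordered by mean level, IGFBP3 was highest in treated LNCaP, followed by PC3 DMSO, PC3 SEL120-34A, LNCaP DMSO, 22Rv1 DMSO and 22Rv1 SEL120-34A. The ranges of LNCaP DMSO and 22Rv1 DMSO overlapped, as did those of both 22Rv1 groups. The LNCaP control level relative to 22Rv1 rested on 1 library: it was 0.47 ± 0.34 higher on the log2 scale with all libraries and changed sign, to -0.73, without LNCaP DMSO replicate 1. In that same library IGFBP4 had 2 counts, IGFBP5 had 0 and IGFBP6 had 2. In the PC3 DMSO library, the other line with high IGFBP3, these genes had 1155, 66 and 191 counts. The treated LNCaP libraries, with more IGFBP3 still, had 1 or 2 counts of IGFBP4, 0 of IGFBP5 and 0 or 1 of IGFBP6. The cause of the IGFBP3 level in LNCaP DMSO replicate 1 was not tested.

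**Figure D1:**
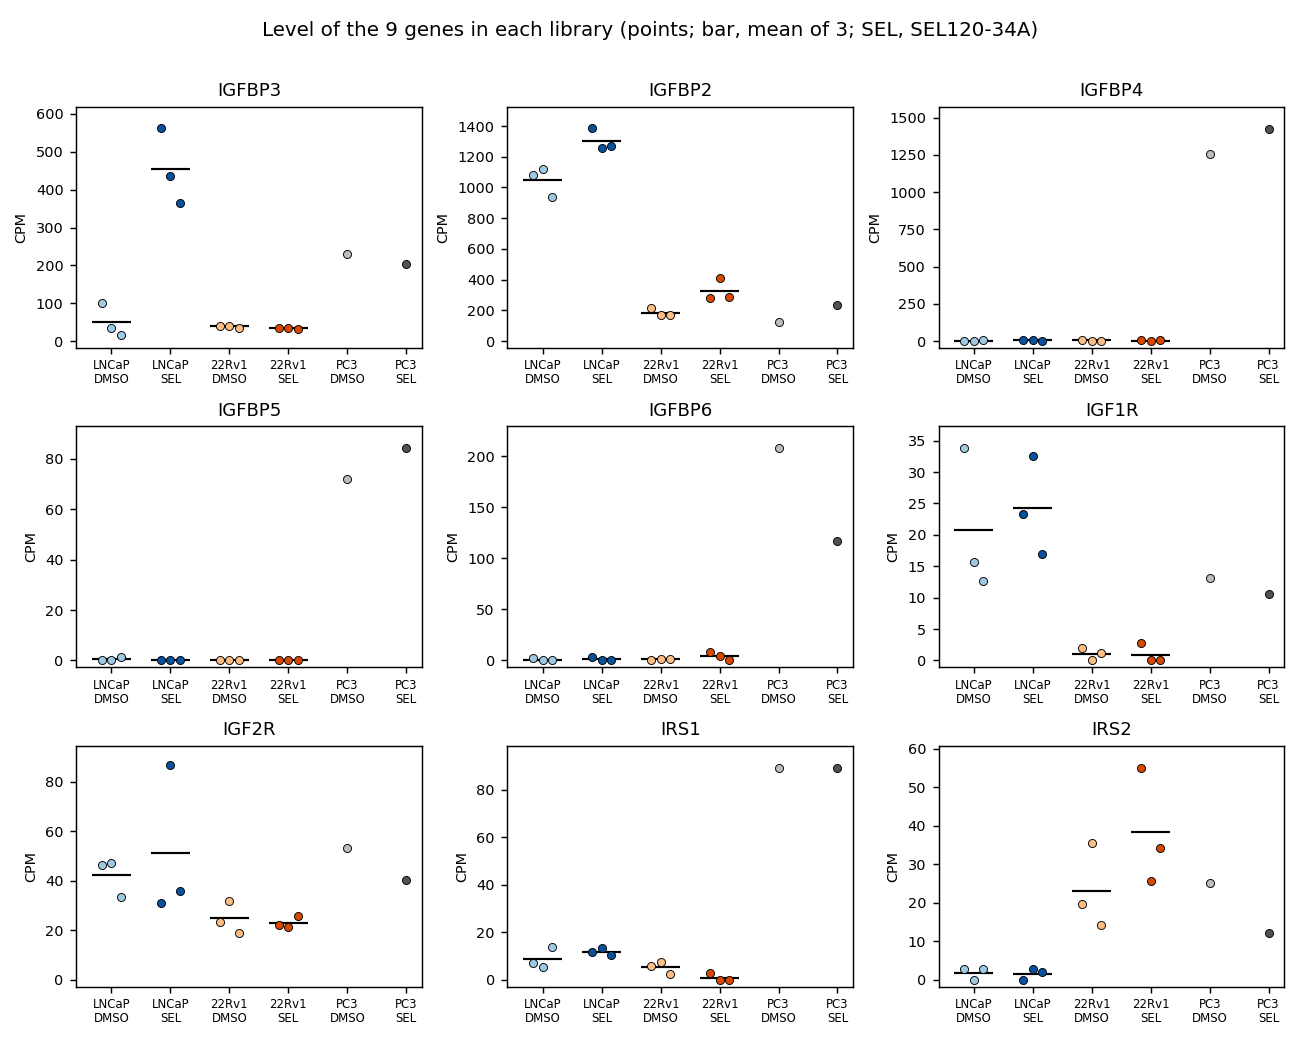
Level of each of the 9 genes in CPM (vertical axes, linear, a scale of their own per gene) in each library of the 6 groups on the horizontal axis; points are libraries and bars the mean of 3. IGFBP3 lies between 365 and 561 CPM in the 3 treated LNCaP libraries and between 16.8 and 101 in their controls, while IGFBP4, IGFBP5, IGFBP6 and IRS1 are high in the 2 PC3 libraries alone.

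IGFBP2, a binding protein often raised in prostate cancer, rose with SEL120-34A in 22Rv1. The 22Rv1 DMSO libraries had 214, 168 and 169 CPM. The treated ones had 284, 408 and 285 CPM. No treated library fell within the control range, which was true of 23.0% of all tested genes in either direction. The mean went from 184 ± 26.0 to 326 ± 71.1 CPM, a 1.77-fold rise (log2 0.82 ± 0.16, adjusted p 0.000709, edgeR), in a comparison in which 5.70% of all genes passed, 4.15% higher and 1.55% lower. IGFBP2 stayed past the threshold in all 22 alternatives, with adjusted p-values from 7.50e-05 to 0.0194.

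In LNCaP, IGFBP2 was high to begin with. DMSO libraries had 1080, 1118 and 941 CPM. Treated libraries had 1388, 1258 and 1269 CPM. Treated and control libraries did not overlap here either, but the log2 fold change of 0.35 ± 0.13 did not pass the threshold (adjusted p 0.146, edgeR; 0.0604 to 0.717 over the alternatives). Its 95% interval ran from 0.06 to 0.64 on the log2 scale. The PC3 libraries had 125 and 233 CPM, a ratio of 1.86 with a counting interval from 1.44 to 2.41. Treated means or libraries were thus above controls in each of the 3 lines, by 1.28-fold, 1.77-fold and 1.86-fold. The LNCaP and 22Rv1 responses of IGFBP2 differed by -0.47 ± 0.20 on the log2 scale (adjusted p 0.365, edgeR), which is not past the threshold.

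Among the DMSO libraries, IGFBP2 was 5.72-fold higher in LNCaP than in 22Rv1 (log2 2.52 ± 0.14, adjusted p 2.20e-18, edgeR), and it kept that call in all 21 alternatives. Between these control groups 49.0% of all tested genes were past the threshold, 24.0% higher and 25.0% lower in LNCaP, and in 56.4% the libraries did not overlap. PC3 DMSO stood lowest, at 0.121 of the LNCaP level by pooled counts (counting interval 0.0995 to 0.146). The order of IGFBP2 by mean level was treated LNCaP, LNCaP DMSO, treated 22Rv1, treated PC3, 22Rv1 DMSO and PC3 DMSO. Neighbours in this order did not overlap. Each PC3 group was a single library, so its place in the order has no replicate check. Apart from treated against control LNCaP, the share of all genes without overlap was not computed for these neighbours.

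IGFBP4, IGFBP5 and IGFBP6 were detected mainly in PC3. The share of all genes that set PC3 apart in this way was not computed, and each PC3 group is 1 library. Genes outside the IGF axis did so too. The summed level of VIM, CD44, CAV1 and AXL was 2290 and 2490 CPM in PC3 and 20.9 to 77.2 in the other lines. IGFBP4 (ENSG00000141753.7; chr17:40443450-40457725), which inhibits IGF action until the protease PAPPA cleaves it, had 1155 counts in PC3 DMSO and 813 in PC3 SEL120-34A (1258 and 1426 CPM). The 12 LNCaP and 22Rv1 libraries had 0 to 5 counts. By pooled counts IGFBP4 was 325-fold higher in PC3 DMSO than in LNCaP DMSO (counting interval 157 to 809) and 296-fold higher than in 22Rv1 DMSO (150 to 687). The treated PC3 library stood at 1.13 times its control (1.04 to 1.24).

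IGFBP5 (ENSG00000115461.5; chr2:216672105-216695549), a binding protein that also attaches to matrix, had 66 and 48 counts in the PC3 libraries (71.9 and 84.2 CPM, ratio 1.17, counting interval 0.790 to 1.73). It had 1 count in a single LNCaP DMSO library and 0 in the other 11 libraries. Against the 0 counts of 22Rv1 DMSO, the lower limit of the counting interval of the ratio for PC3 DMSO was 35.7.

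IGFBP6 (ENSG00000167779.9; chr12:53097436-53102345), which prefers IGF2 as its ligand, had 191 counts in the PC3 DMSO and 67 in the PC3 SEL120-34A library, or 208 and 117 CPM. The ratio was 0.565, with a counting interval from 0.421 to 0.750 that does not cover library preparation. LNCaP and 22Rv1 libraries had 0 to 3 counts. At these counts, changes of IGFBP4, IGFBP5 and IGFBP6 with SEL120-34A were not detectable in LNCaP or 22Rv1.

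Both receptors were at low counts. IGF1R (ENSG00000140443.15; chr15:98648539-98964530), the signalling receptor, had 24, 6 and 9 counts in LNCaP DMSO (33.8, 15.7 and 12.6 CPM). The 22Rv1 DMSO libraries had 1, 0 and 1 counts. The LNCaP libraries all lay above those of 22Rv1, and pooled counts gave a 20.3-fold higher level in LNCaP, with a counting interval from 5.26 to 174. IGF1R did not pass the filter. Without the filter its adjusted p between the DMSO groups was 6.20e-08 (edgeR).

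With SEL120-34A, IGF1R in LNCaP went from 20.7 ± 11.5 to 24.3 ± 7.85 CPM with overlapping libraries, and it stayed at 0 or 1 counts in 22Rv1. PC3 had 12 counts in the DMSO and 6 in the treated library. IGF1R libraries of LNCaP and of PC3 DMSO overlapped, and all 6 LNCaP and both PC3 libraries were above the 22Rv1 range. The 3′ end of IGF1R lies within the opposite-strand gene SYNM-AS1, which had 0 counts in all libraries.

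IGF2R (ENSG00000197081.16; chr6:159969082-160113507) did not pass the threshold with SEL120-34A in either line. LNCaP DMSO libraries had 46.5, 47.1 and 33.6 CPM. Treated libraries had 31.2, 86.7 and 35.9 CPM, so that replicate 2 alone was above the controls. The log2 fold change was 0.35 ± 0.31 (adjusted p 0.703, 95% interval -0.36 to 1.06, edgeR). In 22Rv1 it went from 24.8 ± 6.46 to 23.1 ± 2.28 CPM (log2 -0.04 ± 0.42, adjusted p 0.976, 95% interval -1.01 to 0.93, edgeR), with treated libraries inside the control range. In PC3 the libraries had 53.3 and 40.3 CPM, a ratio of 0.756 (0.440 to 1.27).

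Between DMSO groups IGF2R was 1.73-fold higher in LNCaP than in 22Rv1 (log2 0.79 ± 0.32, adjusted p 0.0386, edgeR). That call was near the threshold and was lost in 9 of 20 alternatives, with adjusted p-values from 0.0193 to 0.335. Among these were the fits without LNCaP DMSO replicate 1 (0.143) or 2 (0.0772) and without 22Rv1 DMSO replicate 1 (0.0835) or 3 (0.205).

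Of the adaptors, IRS2 was higher in 22Rv1 than in LNCaP, and IRS1 was highest in PC3. IRS2 (ENSG00000185950.9; chr13:109752695-109786583), a docking protein that also couples the insulin receptor, had 2, 0 and 2 counts in LNCaP DMSO and 0, 1 and 1 in treated LNCaP. The 22Rv1 DMSO libraries had 10, 19 and 12 counts (19.6, 35.6 and 14.3 CPM). LNCaP therefore lay below the floor of 3 counts while all 22Rv1 libraries were above it. By pooled counts the LNCaP DMSO level was 0.102 of that in 22Rv1 DMSO, with a counting interval from 0.0264 to 0.281. IRS2 passed the filter through its 22Rv1 libraries alone, so no test of this difference is given.

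IRS2 in treated 22Rv1 was at 55.1, 25.8 and 34.2 CPM, above the DMSO mean in each library but within the DMSO range in 2 of 3. The log2 fold change of 0.85 ± 0.39 did not pass the threshold (adjusted p 0.219, edgeR), although its unadjusted p was under 0.05. Its 95% interval, which is wider than the test implies, ran from -0.05 to 1.75. In PC3, IRS2 went the other way, from 23 to 7 counts, and its ratio of 0.490 had a counting interval from 0.178 to 1.18. It was the 1 gene of the 9 past 2-fold in PC3, where 9.60% of 9143 genes were past 2-fold, 2.94% higher and 6.66% lower.

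IRS1 (ENSG00000169047.6; chr2:226731312-226799820), the other docking protein, was at 89.3 and 89.4 CPM in the PC3 DMSO and SEL120-34A libraries, a ratio of 1.00 (0.692 to 1.44). In LNCaP it had 2 to 10 counts in DMSO and 3 to 5 in treated libraries. In 22Rv1 it had 3, 4 and 2 counts in DMSO and 1, 0 and 0 after SEL120-34A, which pools to 9 against 1 count and a ratio of 0.221 (0.00504 to 1.60). The fit without the filter gave an adjusted p of 0.731 for it (edgeR). By pooled counts IRS1 was 9.49-fold higher in PC3 DMSO than in LNCaP DMSO (5.58 to 17.1) and 18.7-fold higher than in 22Rv1 DMSO (9.37 to 42.3). As for IGFBP4, no share of all genes was computed for these differences.

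Counted over the 8 genes other than IGFBP3, of which 3 were tested, 0 passed the threshold in LNCaP with edgeR, where 2.77% of all genes did. At an unadjusted p under 0.05 there was 1, IGFBP2. The DESeq2 Wald test, with an adjusted p for only 1 of the 8, and limma-trend, with all 8, also called 0. In 22Rv1 1 passed, IGFBP2, against 5.70% of all genes, and at an unadjusted p under 0.05 there were 2, IGFBP2 and IRS2. For the difference between the responses 0 passed with edgeR, against 0.734% of all genes (0.268% higher and 0.466% lower), and 1 did so at an unadjusted p under 0.05. The other 2 tools called 0, again out of 1 gene with the Wald test and 8 with limma-trend. Between the DMSO groups, where 49.0% of all genes passed, IGFBP2 and IGF2R were higher in LNCaP, and IRS2 is not counted for the reason given above. Without the filter, 3 of the 8 passed there (IGFBP2 and IGF1R higher, IRS2 lower), as did 4361 of 21395 genes.

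**Figure D2:**
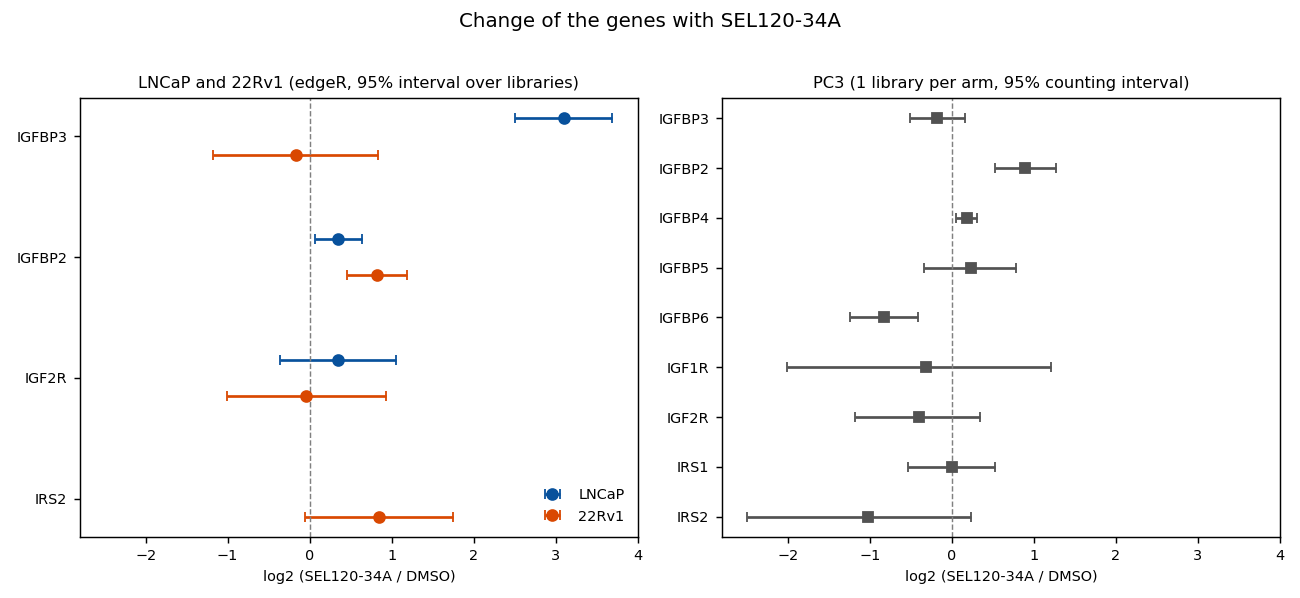
Log2 ratio of SEL120-34A to DMSO (horizontal axes) for the 4 tested genes in LNCaP and 22Rv1 (left, edgeR with 95% intervals over libraries) and for all 9 in PC3 (right, 95% counting intervals of 1 library per arm). IGFBP3 stands at 3.10 in LNCaP and -0.17 in 22Rv1, IGFBP2 is above 0 in all 3 lines, and IRS2 is shown for 22Rv1 and PC3 alone, since its LNCaP libraries had 0 to 2 counts.

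The ligands were nearly silent. IGF1 had 1 count in all libraries together. IGF2 had 8 counts in PC3 DMSO and 10 in PC3 SEL120-34A, and 0 in all LNCaP and 22Rv1 libraries. IGFBP1, the binding protein regulated by insulin, had 0 to 5 counts. IGFBPL1, a related secreted protein, had 10 to 22 counts in each 22Rv1 library and 0 or 1 elsewhere.

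Of 209 further genes of the pathway on 9 lists, 106 were tested. In LNCaP 3 were higher and 2 lower after SEL120-34A (4.72%, against 2.77% of all genes), and in 22Rv1 3 were higher and 1 lower (3.77%, against 5.70%). Their median log2 fold changes were 0.11 and -0.03, where all genes had a median of 0.00 in both lines. The calls that can be given by name follow.

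Among 8 tested IGFBP proteases and inhibitors, KLK3 and KLK2 fell and KLK4 rose in LNCaP. KLK3, which cleaves IGFBP3, fell from 1218 ± 167 to 331 ± 81.5 CPM (log2 -1.82 ± 0.15, adjusted p 1.35e-11, edgeR). KLK2, its close relative, fell from 516 ± 29.8 to 190 ± 45.7 CPM (-1.37 ± 0.15, adjusted p 2.85e-08). KLK4 rose from 161 ± 23.3 to 273 ± 35.2 CPM in LNCaP (0.77 ± 0.16, adjusted p 0.00276) and from 241 ± 18.4 to 466 ± 63.2 CPM in 22Rv1 (0.96 ± 0.15, adjusted p 1.81e-05). KLK2 and KLK3 are similar neighbours, and reads in shared sequence could be divided between them.

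GADD45A, a stress gene and FOXO target, rose in both lines, 1 of 18 tested genes of its list in each. In LNCaP it went from 48.1 ± 10.6 to 119 ± 19.5 CPM (log2 1.38 ± 0.27, adjusted p 0.00117, edgeR; 0.253 with limma-trend). In 22Rv1 it went from 17.0 ± 9.05 to 47.3 ± 24.2 CPM with overlapping libraries (1.46 ± 0.39, adjusted p 0.0180), and that call was lost with limma-trend (0.153), without 22Rv1 DMSO replicate 2 (0.0855) or 3 (0.0549) or without 22Rv1 SEL120-34A replicate 1 (0.260) or 2 (0.0933). For DDIT4, an mTOR inhibitor induced by stress, the 22Rv1 mean climbed from 24.8 ± 2.90 CPM in DMSO to 103 ± 24.6 CPM (2.03 ± 0.32, adjusted p 2.22e-05). It was the 1 gene called of the 28 tested PI3K, AKT and mTOR genes. Its response was smaller in LNCaP by 1.55 ± 0.40 on the log2 scale (adjusted p 0.0494), a call that was lost in 13 of 21 alternatives, 9 of them without a single library (up to 0.156).

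Of 11 tested genes on a list of pathways known to act on IGFBP3, TGF-β and vitamin D signalling among them, 1 rose in LNCaP. SMAD7, a feedback inhibitor of TGF-β signalling, had 2 counts in each LNCaP DMSO library and 5 or 6 in each treated one (adjusted p 0.0374, edgeR; lost in 10 of 18 alternatives, up to 0.184 without LNCaP DMSO replicate 3).

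**Figure D3:**
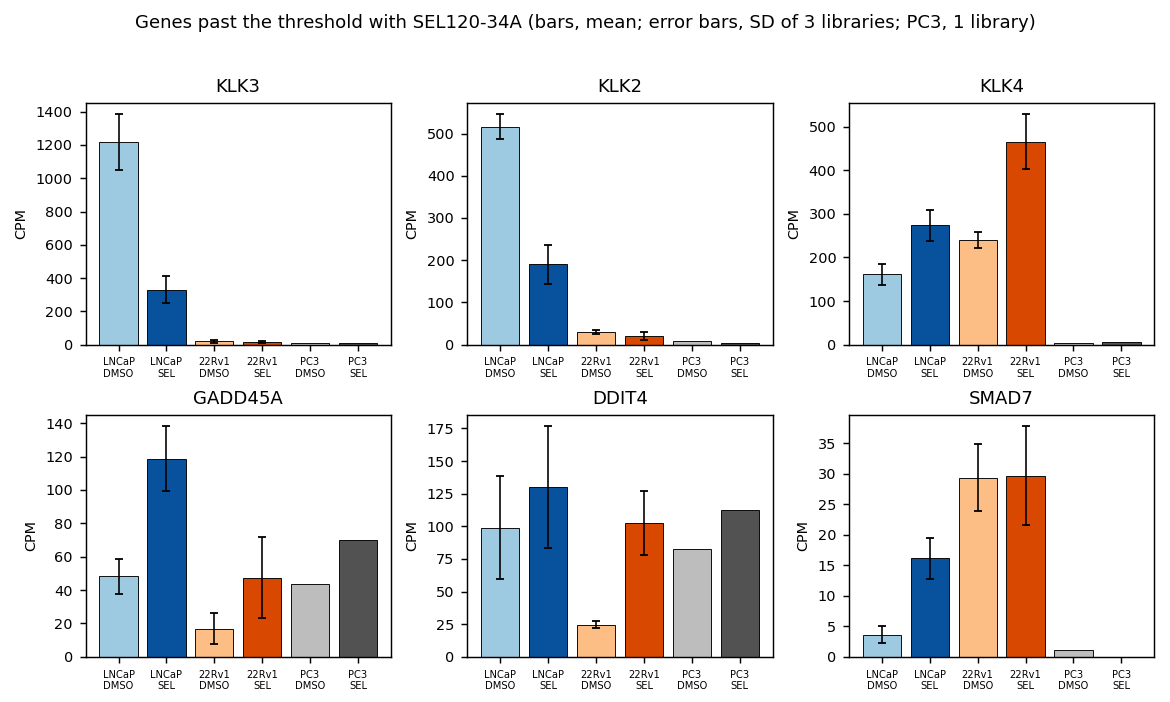
Mean CPM (vertical axes, from 0, a scale of their own per gene) of 6 listed genes past the threshold with SEL120-34A in LNCaP or 22Rv1, in the 6 groups; error bars are the SD of 3 libraries and PC3 bars are 1 library. KLK3 and KLK2 are lower and SMAD7 higher in treated LNCaP, DDIT4 is higher in treated 22Rv1, and KLK4 and GADD45A are higher in both.

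Between the DMSO libraries of LNCaP and 22Rv1, 30 of the 106 genes were higher and 31 lower in LNCaP (57.5%, against 49.0% of all genes). Both shares include genes with 3 or fewer counts in every library of 1 group, whose calls the filter nearly fixed. The 4 RAS and MAPK genes with the largest differences, feedback inhibitors and targets of that cascade, were at or below the floor in LNCaP. SPRY4 had 0 or 1 counts in LNCaP DMSO and 48.4 ± 23.1 CPM in 22Rv1 DMSO, ETV4 had 0 to 2 counts and 45.5 ± 4.41 CPM, DUSP6 had 0 or 1 counts and 21.5 ± 5.91 CPM, and SPRY2 had 1 to 3 counts and 22.7 ± 7.70 CPM. SPRY1, of the same family and singled out after its value was seen, was higher in LNCaP by 2.83 on the log2 scale (adjusted p 5.75e-10, edgeR). Of the 19 tested genes of that list, 2 were higher and 8 lower in LNCaP, these 8 including the 4 at or below the floor. Those 4 passed the filter through 22Rv1 alone, as IRS2 did, so their calls are not read as a result. The median log2 difference of the 19 genes was 0.02, against -0.03 for all genes.

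Of 28 tested PI3K, AKT and mTOR genes, 12 were higher and 3 lower in LNCaP, with a median of 0.25. PIK3CD, a catalytic PI3K subunit, was at 43.0 ± 3.11 CPM in LNCaP and had 0 to 2 counts in 22Rv1 DMSO. It is among the 12 but passed the filter through LNCaP alone. PIK3R3, a regulatory subunit, was higher by 1.83 ± 0.34 and DDIT4 by 1.93 ± 0.29 on the log2 scale, and GSK3A was lower by 1.81, all for LNCaP against 22Rv1 (adjusted p from 7.88e-08 to 2.12e-05, edgeR). Of 15 tested receptor adaptors and brakes, 2 were higher and 6 lower in LNCaP. The 4 with the largest log2 values were DOK4 (0 to 2 counts in LNCaP, 10 to 23 in 22Rv1), GRB14 (-1.85), GRB7 (-1.42) and SH2B1 (-0.93). DOK4, 1 of the 6, passed the filter through 22Rv1 alone.

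Other list genes separated the control groups as well. Among 18 tested FOXO factors and targets, 6 were higher and 5 lower in LNCaP. The 4 with the largest log2 differences, SESN1 (2.78), SESN3 (2.70), CCNG2 (2.45) and GADD45A (1.44), were all higher. CITED2 (-1.35) had the largest of the 5 lower values. On the list of pathways known to act on IGFBP3, 2 of 11 tested genes were higher and 6 lower in LNCaP. TGIF1 (1.16) was 1 of the 2. Among the 6 were SMAD4 (-1.86), TGIF2 (-1.25) and SMAD7, with 2 counts per LNCaP DMSO library against 14 to 21 in 22Rv1 DMSO. KLK3 (5.93), KLK2 (4.06), CTSB (1.35) and ADAM9 (0.88) were the proteases with the largest differences, and RXRA (2.74) and CCN1 (2.13) passed among the genes related to IGFBPs or their receptors. CTCF, which insulates the IGF2 locus, was lower by 0.76 in LNCaP (adjusted p 0.0269, edgeR). That call was lost in 6 of 20 alternatives, among them without LNCaP DMSO replicate 1 (0.0573) or 2 (0.142) or 22Rv1 DMSO replicate 3 (0.224).

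The genes whose log2 CPM followed IGFBP3 most closely over the 14 libraries, among 4276 genes with enough counts, were STX3 (Pearson r 0.907), SAT1 (0.903), SCPEP1 (0.861), EXOC7 (0.843) and B2M (0.839), with Spearman's rho from 0.675 to 0.780. The libraries share lines and treatments, so these are descriptions of a pattern over 6 groups. SAT1, the enzyme that acetylates polyamines for export, had mean levels of 68.9 and 315 CPM in LNCaP DMSO and SEL120-34A, 30.2 and 33.9 in 22Rv1, and 210 and 370 in PC3. B2M, the light chain of HLA class I, had 132 and 221 CPM in LNCaP, 94.8 and 114 in 22Rv1, and 375 and 356 in PC3. IGFBP4, IGFBP5 and IGFBP6 had pairwise Pearson values from 0.936 to 0.983, and nearly all of their counts were in the 2 PC3 libraries.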

How the data were processed

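The authors mapped BRB-seq reads to GRCh38.p13 and counted them per GENCODE gene with STARsolo (submitters' processing notes and published methods), and deposited raw counts for 14 libraries. Collapsing of molecular identifiers and the strand setting are not given in the sources used here. The authors also deposited log2 CPM for 9638 genes, which TMM factors and a prior count of 2 gave back from the counts to within 5e-14.

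Counts of the 12 LNCaP and 22Rv1 libraries were fitted in 1 model with a mean per group, TMM scaling and the low-count filter (7086 genes) in edgeR 4.0.16 (R 4.3.3), by the quasi-likelihood F-test with Benjamini-Hochberg adjustment over all genes kept and a threshold of 0.05. Contrasts were SEL120-34A against DMSO per line, their difference, and LNCaP against 22Rv1 in DMSO. The model had 8 residual degrees of freedom. The 95% intervals of log2 fold changes rest on these 8 and on an SE taken from the F statistic. They are wider than the quasi-likelihood test implies, since that test adds degrees of freedom shared over genes. The edgeR SE can still be smaller than that of other tools, as for IGFBP3 in LNCaP. Levels are CPM with TMM factors over 14 libraries, as mean ± SD. Where an arm had 3 or fewer counts in every library, no fitted fold is given. Ratios of pooled counts and of PC3 libraries have exact conditional 95% intervals. The fit was tested on simulated counts.

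The genes, lists and the naming rule were chosen with earlier results of these data known. Named were the 9 genes, up to 4 genes past the threshold per list and contrast by size of change, the 5 genes most correlated with IGFBP3 (mean of at least 20 counts), and KLK3. Some results that these rules name are not reported here. Coordinates are from GENCODE release 44 on GRCh38, with promoter windows from RefSeq for all 9 genes. Alternatives were a replicate block, DESeq2 size factors, library totals, no filter, at least 10 counts per library, the DESeq2 1.42.0 Wald test, limma-trend (limma 3.58.1) on the deposited log2 values, PC3 added, each line alone, equal depth, and each library left out.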

Additional observations from a re-analysis of the deposited data

Results flagged for a closer look

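The SEL120-34A response of IGFBP3 differed in size between the lines. Each treated LNCaP library was above each control, while in 22Rv1 no change was detectable, with each treated library a little below the control mean. The difference, LNCaP minus 22Rv1, was 3.27 on the log2 scale. It was not tested here, because the gene was chosen for it. It was 4.48 without LNCaP DMSO replicate 1 and at least 2.80 in all 20 alternatives. These refit the same libraries that led to the choice, so they show only how the value depends on the settings.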

How the results depend on the processing

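Over the alternatives, 0 of 321 values for the tested members and 0 of 765 for the list genes reversed a call. The 321 include the IGFBP3 values given without a test, which had no call to reverse. Among them, the difference between DMSO groups changed sign, from 0.47 to -0.73, without LNCaP DMSO replicate 1. Most of the 16 member results had no call to lose. Those with a call were IGFBP2 in 22Rv1 and, between DMSO groups, IGFBP2, IGF2R and IRS2, whose test is not given above. Of these, IGF2R lost its call in 9 alternatives. All 38 list results had a call, and 9 lost it in some alternatives. Among these were ADAM9, GRB7 and TGIF2 between DMSO groups, each with limma-trend or at equal depth. The counts of genes past the threshold are out of different numbers of tested genes, so a lower count need not be a lower share. In LNCaP (196 of 7086) the count was 122 of 2870 with at least 10 counts per library and 101 of 3788 with the DESeq2 Wald test. It was 41 of 9638 with limma-trend and 105 of 5154 at equal depth (1 random draw). In 22Rv1 (404 of 7086) it was 260 of 21395 without the filter, 255 of 2552 with the Wald test and 201 of 9638 with limma-trend. For the difference between lines (52 of 7086) it was 29 of 2870 with at least 10 counts, 5 of 9638 with limma-trend and 31 of 5154 at equal depth. Between DMSO groups (3473 of 7086 genes, 3 members other than IGFBP3, IRS2 included) it was 1503 of 2870 and 2079 of 5154 genes, and 1 and 1 member. These are the fits with at least 10 counts and at equal depth, where fewer genes or reads enter. Leaving out 1 library gave 87 to 239 genes in LNCaP, 158 to 446 in 22Rv1, 24 to 57 for the difference, 3038 to 3723 between DMSO groups and 2 to 4 members there. The cause of these shifts was not tested. Library totals put the median log2 value of all genes at -0.08, -0.14 and -0.24 in LNCaP, 22Rv1 and the DMSO comparison, and gave 99 rises and 90 falls in place of 141 and 55, 144 and 231 in place of 294 and 110, and 1211 and 2362 in place of 1701 and 1772.

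Replicate numbers are shared by the groups, but nothing in the labels says that they pair libraries. Of 18 same-numbered pairs, 2 had a correlation of deviations over 0.1 (range -0.103 to 0.121), and 6 of 12 libraries were closest to their own number. With the replicate number as a block, 240, 450, 68 and 3507 genes passed, and no call changed among the 4 members that passed the filter. The other 5 were not fitted with the block. Depth limits IGFBP4, IGFBP5, IGFBP6, IRS1, IGF1R and, in LNCaP, IRS2, which had single-digit or 0 counts in most of these libraries.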
